A study of Mus musculus with 167 samples.

Results

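The killer cell lectin-like receptors are membrane proteins of natural killer (NK) cells and of some T cells and myeloid cells, encoded by genes whose symbols begin with Klr. All genes of the count table whose mouse symbol begins with Klr were taken, without regard to their values, which gave 30 of 36118 genes. Gene expression had been measured by RNA-seq of whole tumours. The tumours came from progeny of Collaborative Cross (CC) males and MexTAg females, MexTAg being a mouse that carries the SV40 large T antigen under the promoter of the mesothelin gene. All mice received 2 intraperitoneal injections of 3 mg of crocidolite asbestos and no therapy, and all tumours are labelled as asbestos-related mesothelioma. There were no tumour-free or asbestos-free samples. The labels place 36 mice (52 of the 167 tumours) below and 83 mice above median survival, from 35 CC-MexTAg strains. The labels give no age, and the survival class is that of the mouse. The mouse was the replicate, with the counts of its 1 to 6 tumours added.

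NK cells read the surface of other cells through pairs of inhibitory and activating receptors. The Klra genes encode the Ly49 receptors for class I major histocompatibility molecules. Klrk1 encodes NKG2D, a receptor for stress-induced ligands, and Klrc1 or Klrc2 pairs with Klrd1 to form the NKG2 and CD94 receptors. Klrb1 genes encode the NKR-P1 receptors, several of which bind Clec2 proteins. Number and kind of Klra genes are known to differ between inbred mouse strains. Ncr1 encodes NKp46, a receptor used as a marker of NK cells, and Cd3e encodes a chain of the T cell receptor complex.

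All 30 genes lie on chromosome 6 of GRCm38, 26 of them annotated as protein coding and 4 as pseudogenes. The Klra group has 14 members, Klrb 6, Klrc 3, Klrg 2, Klri 2, and Klrd, Klre and Klrk 1 each. Klrg2 stands apart at chr6:38625693-38637242, whereas Klra4 lies at chr6:130043731-130067271 and Klra10 at chr6:130269194-130281928, both on the minus strand. The Klra genes resemble each other, which limits how reads can be told apart. Of the distinct 31-base runs in the transcripts of Klra10, 34.9% occur in no other gene, and the shares were 42.2% for Klra9, 46.9% for Klrc1, 82.5% for Klra4 and 98.4% for Klra2. Values of Klra10, Klra9, Klra8, Klra3, Klrc1 and Klrc3 are therefore uncertain between near-identical copies. Klrb1b and Klrb1c overlap the annotated gene Gm44511, and 69.2% and 78.8% of their runs were unique.

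RefSeq promoter windows (GRCm38.p6, from 250 bases before to 50 after a start) were found for 23 of the 30 genes. Klra4 and Klra6 are shown because their levels moved together over mice (below), Klra3 because it carries the same run of letters, and Klra10 because it differed most between strains. Capitals mark the longest run that the windows of Klra4 and Klra6 share, 19 bases, which was searched on both strands as AAGCAATTTCCTCTTTTTG. The run occurred in 5 of 32817 windows of all genes (0.0152%), and 4 of those belong to Klra4, Klra6, Klra3 and Klra9. Only exact matches were counted, and near copies of the run lie in windows of Klra2, Klra5, Klra7, Klra8 and Klra17. Klra3 rose with Cd3e at given Ncr1, whereas Klra4 and Klra6 fell (below). A part of the run in these levels was not tested. The run begins 85 bases before the start in Klra4, 125 in Klra6 and 25 in Klra3. The windows lie on the minus strand at chr6:130067222-130067521, chr6:130026905-130027204, chr6:130337577-130337876 and chr6:130281879-130282178, in the order given.
Klra4: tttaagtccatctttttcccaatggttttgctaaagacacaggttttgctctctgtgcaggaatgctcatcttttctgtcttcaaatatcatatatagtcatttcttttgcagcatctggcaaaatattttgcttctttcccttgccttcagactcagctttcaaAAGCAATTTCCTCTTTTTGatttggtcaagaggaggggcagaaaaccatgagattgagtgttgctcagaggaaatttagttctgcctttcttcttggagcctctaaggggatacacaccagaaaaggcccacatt
Klra6: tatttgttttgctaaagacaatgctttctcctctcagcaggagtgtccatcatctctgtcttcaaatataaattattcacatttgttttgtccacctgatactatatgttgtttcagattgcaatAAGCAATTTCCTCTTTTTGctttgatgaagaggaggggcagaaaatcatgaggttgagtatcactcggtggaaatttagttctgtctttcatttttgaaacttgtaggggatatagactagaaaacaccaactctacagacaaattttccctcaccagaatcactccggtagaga
Klra3: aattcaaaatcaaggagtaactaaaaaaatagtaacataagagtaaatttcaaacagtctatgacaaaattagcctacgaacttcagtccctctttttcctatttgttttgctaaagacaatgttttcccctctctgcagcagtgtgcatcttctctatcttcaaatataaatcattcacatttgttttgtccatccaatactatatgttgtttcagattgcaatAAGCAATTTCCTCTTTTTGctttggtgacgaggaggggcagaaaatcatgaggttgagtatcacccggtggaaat
Klra10: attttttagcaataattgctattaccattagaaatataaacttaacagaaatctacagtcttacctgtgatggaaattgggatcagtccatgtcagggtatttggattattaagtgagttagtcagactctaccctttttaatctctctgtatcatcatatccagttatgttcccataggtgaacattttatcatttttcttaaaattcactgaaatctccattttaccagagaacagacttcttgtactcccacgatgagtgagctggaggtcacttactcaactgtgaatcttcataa
The window of Klra10 does not hold the run as an exact match. Windows were placed by annotated starts, and whether the start of Klra10 corresponds to those of the other genes was not tested. Over the aligned length, the windows of Klra3 and Klra9 were 84.95% identical and those of Klra4 and Klra6 59.5%.

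Depth was 11138491 to 35399287 estimated counts per tumour and 11138491 to 143106098 per mouse, with a median of 23390588 per mouse. In 5 libraries the strain-marking genes stood nearer to another strain than to the labelled one. Their correlation with the other strain was 0.767 to 0.969, against -0.289 to 0.128 with their own. They are the libraries labelled as mice Rogan-C3, LOX-D1, LAT-F5, LAT-D3 and MEE-A3, and the counts of genes that differed, the Klra10 tally and the strain order are given with and without them. The residuals, the fits with strain added and the spread between tumours of a mouse are given with them only. In 8 libraries more than 1% of counts came from marker genes of liver, reproductive tract, intestine or kidney. The mesothelial marker Msln had a median of 24.4 counts per 1000000 gene counts (CPM) in mice below and 16.9 CPM in mice above median survival, and it was detected in all 119 mice. The labels do not say that the mice of a strain came from separate litters, so p-values measure the spread between these mice. In whole tumours, fewer cells of a type and less RNA per cell cannot be told apart.

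Most of the family was present at low levels. A gene was called detected in a mouse at 0.269 CPM or more, which is 3 counts in the shallowest mouse. On that rule 14 of the 30 genes were detected in 50% of the mice or more, 12 in 10% to 50% and 4 in fewer than 10%. A mouse had between 4 (VIT-A2) and 27 (CC017-I4) of the genes, with a median of 16. Only Klra2 was detected in all 119 mice, followed by Klrg2 in 117 and Klrb1b in 116. Klrk1 was detected in all but 5 mice and Klra4 in all but 6. The pseudogenes Klrb1-ps1 and Klra11-ps were detected in 1 and 2 mice. These floors cover counting error only.

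Per kilobase of exon, Klra4 had the highest median of the family, at 6.66 CPM per kb, followed by Klra2 at 4.08 and Klrb1b at 1.07. Klrd1 had a median of 0.729 CPM per kb, Klra17 0.473, Klrg2 0.345, Klrk1 0.226, Klre1 0.208 and Klrc1 0.204. Exon length was taken over all annotated transcripts of a gene, 7183 bases for Klrk1 and 1281 for Klrd1, so this order depends on the annotation. Without division by length Klrk1 had the higher median, 1.62 CPM against 0.933 CPM for Klrd1. Per kilobase, Ncr1 had 0.197 and Cd3e 0.778. Klra4, which encodes the activating receptor Ly49D, thus stood above the NK marker itself, and so did Klra2, which encodes Ly49B, a member known from myeloid cells. Klra4, Klra2 and Klrb1b together held a median of 64.5% of the family's summed CPM in mice below median survival and 66.7% in mice above it. The summed CPM of the family was 9.54 to 177 (median 31.6) in mice below and 7.07 to 254 (median 44.8) in mice above median survival.

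**Figure D1:**
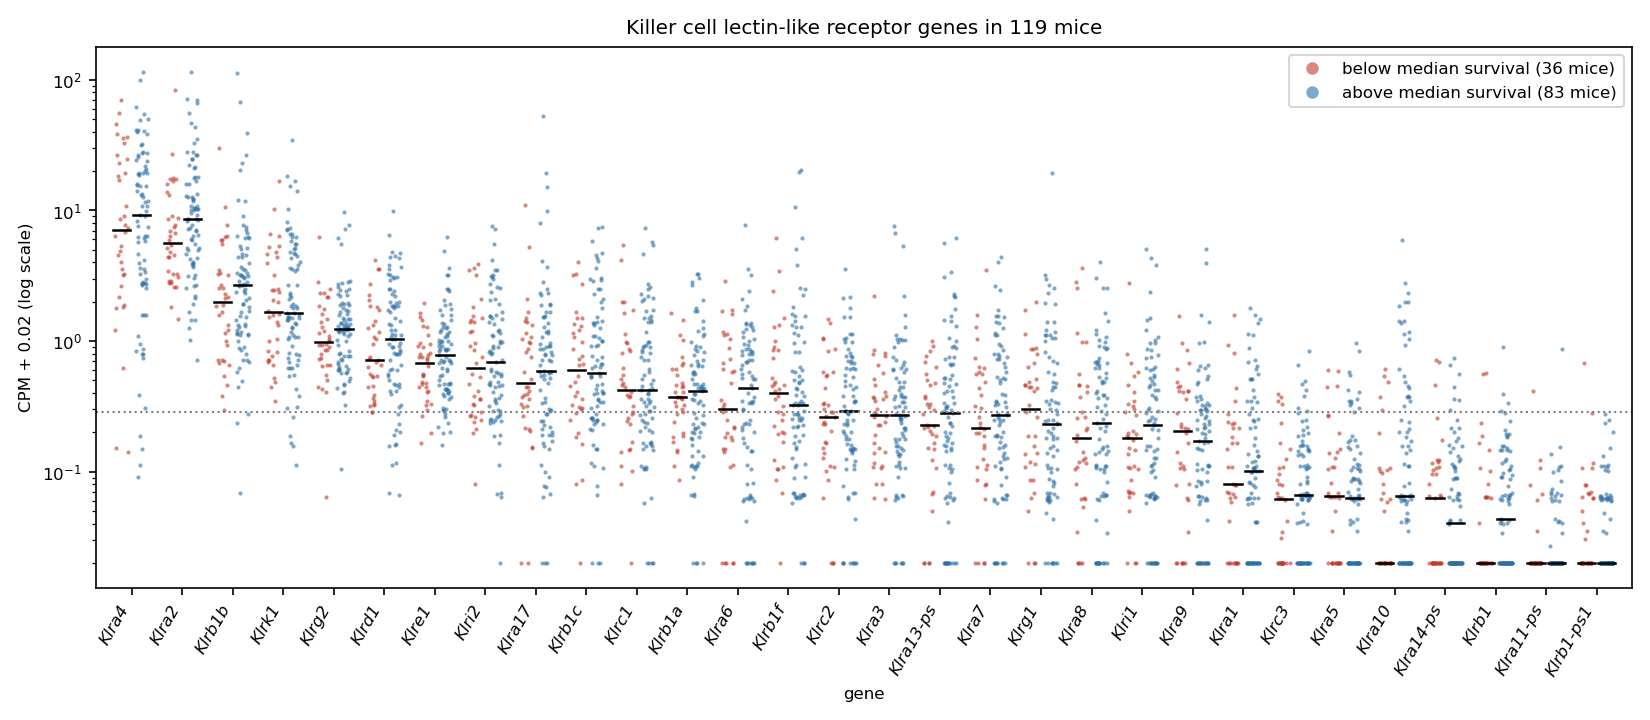
Each point is the CPM of 1 gene in 1 mouse, on a log scale after adding 0.02, with mice below median survival (red, left of each pair) and above it (blue, right), and black bars at the medians. The dotted line marks detection at 0.269 CPM, and Klra4 and Klra2 have the highest medians, 8.30 and 7.74 CPM.

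Single mice held much of the counts of some genes. Klra17, which encodes Ly49Q, reached 53.1 CPM in YID-E1, 25.5% of its sum over 119 mice, and the next mouse had 19.5 CPM. Klrg1, an inhibitory receptor for cadherins, reached 19.2 CPM in CC036-F1, 25.3% of its sum, and the next mouse, Rogan-J2, had 3.18 CPM. Klrb1b, an inhibitory NKR-P1 receptor, reached 111.8 CPM in LAX-E2, where Cd3e was at 1.02 CPM and Ncr1 at 0.0424 CPM. In that library 20.7% of all counts came from the marker genes of other tissues, and their part in the Klrb1b value was not tested. The second highest Klrb1b value, 67.2 CPM, was in LOX-E4, where Cd3e was at 119 CPM. YID-E1 was the highest mouse for 5 of the 30 genes and LOX-E4 for 4.

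Mice below and above median survival differed little beyond their spread. Klrk1 had 0.331 CPM at the lowest, 1.64 at the median and 16.8 at the highest in mice below median survival, against 0.0936, 1.62 and 34.3 CPM in mice above it. Klrb1c, the gene of the NK1.1 antigen, had 0, 0.580 and 4.0 CPM below and 0, 0.554 and 7.40 CPM above. The ranges of the classes overlapped almost fully for both genes. Klrd1 (CD94) had 0.265, 0.702 and 4.18 CPM below and 0.0462, 1.03 and 9.83 CPM above. Klrc1 (NKG2A, inhibitory) had 0, 0.406 and 5.39 CPM below and 0, 0.405 and 7.27 CPM above. Klre1, the partner of Klri1 and Klri2, had 0.145, 0.662 and 1.93 CPM below and 0.142, 0.757 and 6.23 CPM above. In these 3 genes, too, the highest mouse was above median survival and the bulk of the mice overlapped. Klrg1 had 0, 0.284 and 1.97 CPM below and 0, 0.210 and 19.2 CPM above. Klra8, the activating receptor Ly49H, had 0, 0.161 and 3.64 CPM below and 0, 0.216 and 4.03 CPM above. Klra17 had 0, 0.459 and 11.1 CPM below and 0, 0.566 and 53.1 CPM above. The class medians of these 3 genes differed less than their mice did. Klra2 had 1.46, 5.63 and 83.2 CPM below and 0.694, 8.62 and 116 CPM above. Ncr1 had 0, 0.288 and 4.73 CPM below and 0, 0.356 and 3.70 CPM above.

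The other members were lower still or varied as much. Klri2, the activating partner of Klre1, had 0.0614 CPM at the lowest, 0.601 at the median and 3.91 at the highest in mice below median survival, against 0, 0.676 and 7.64 CPM above it. Klri1, the inhibitory partner, had 0, 0.160 and 2.77 CPM below and 0, 0.209 and 5.04 CPM above. Klrg2 had 0.0444, 0.963 and 6.20 CPM below and 0.0849, 1.22 and 9.70 CPM above. The classes overlapped in all 3. Klrb1a had 0.0663, 0.352 and 1.63 CPM below and 0, 0.395 and 3.24 CPM above. Klrb1f had 0, 0.378 and 6.12 CPM below and 0, 0.305 and 20.6 CPM above, its highest mouse being LAX-K2, which also had the most Cd3e of all mice (307.4 CPM). Klrc2 (NKG2C, activating) had 0, 0.244 and 1.45 CPM below and 0, 0.270 and 3.55 CPM above. The highest mouse of each was again above median survival. Among the inhibitory Ly49 genes, Klra7 had a median of 0.196 CPM below and 0.252 CPM above. Klra3 (Ly49C) had a median of 0.252 CPM below and 0.253 CPM above, and Klra6 0.281 and 0.416 CPM. These medians lie at or below the detection limit, except that of Klra6. Klra1, Klra5, Klra9, Klra10, Klra14-ps, Klrb1 and Klrc3 had medians of at most 0.186 CPM in both classes, and those of Klra11-ps and Klrb1-ps1 were 0. The pseudogene Klra13-ps had a median of 0.207 CPM below and 0.263 CPM above, and reached 6.10 CPM in CC036-F1. Klra5 reached 0.945 CPM (CC081-A1), Klrc3 0.819 CPM (YID-E1) and Klrb1 0.876 CPM (LAX-G3).

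By edgeR's quasi-likelihood test on counts per mouse, with Benjamini-Hochberg adjustment over 17091 genes, 0 of the 21 members that passed the filter on low counts differed between the classes. Of all genes tested, 1.56% did (0.579% lower and 0.983% higher below median survival), so 0 of 21 was near what the background gives. Limma-voom and DESeq2 also called 0 members, and 4 members had an unadjusted p under 0.05 in edgeR. All 21 members had a negative log2 fold change (below minus above), with a median of -0.42, against -0.02 over all genes tested. That direction held for all 21 with total count scaling and for 18 of 21 in limma-voom, where the median was -0.10. Among members with at least 300 counts in all, 5 mice each held over 15% of some member's summed CPM. They were YID-E1, CC036-F1, LAX-K2, LOX-E4 and LAX-E2, all above median survival. Without these 5 mice the median was -0.21 and 19 of 21 were negative. The lowest p belonged to Klrb1b, with a log2 fold change of -1.11 ± 0.41 (SE, 36 mice below and 83 above, adjusted p = 0.220). Its value was -0.51 ± 0.34 without the 8 libraries rich in other tissues and -0.08 ± 0.30 without the 5 mice above. Klra2 (-0.61 ± 0.29, adjusted p = 0.497), Klre1 (-0.50 ± 0.21, adjusted p = 0.348), Klra17 (-0.81 ± 0.43, adjusted p = 0.595) and Klrg1 (-0.76 ± 0.42, adjusted p = 0.636) did not pass either. Klrk1 was at -0.28 ± 0.31, Klrc1 at -0.13 ± 0.34, Klra4 at -0.09 ± 0.37 and Klra8 at -0.02 ± 0.40, all with adjusted p above 0.9.

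The call of 0 depended on 2 choices. Without strain CC044, Klrb1b was lower below median survival (-1.47 ± 0.43, edgeR adjusted p = 0.0409). Without the filter on low counts, which let all 30 genes be tested, Klra10 was lower (-2.24 ± 0.59, edgeR adjusted p = 0.0116). Klra10 was highest in strains whose mice are mostly above median survival (below). Within the 13 strains that have both classes (22 mice below, 35 above), Klra10 was at 0.03 ± 0.47 in the same unfiltered fit. CC060, Rogan, LOX and CC046 have no mice below median survival and were not in that fit. GIT, CC040 and CC021 were in it and held no Klra10 count. The classes could therefore not be compared in CC060 and Rogan, where every mouse had Klra10 detected.

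Within those 13 strains, 0 of 16 members tested differed between the classes, and 0% of 16481 genes did. DESeq2 and limma-voom also called 0 members, and 1 member had an unadjusted p under 0.05 in edgeR. That member was Klrg1, at -0.93 ± 0.40 (SE, adjusted p = 0.420). Of the 16 members, 15 had a negative log2 fold change, with a median of -0.45, against -0.01 over all genes tested. Klrb1c was at -0.87 ± 0.44, Klrd1 at -0.66 ± 0.35 and Klrk1 at -0.51 ± 0.43.

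The medians of lymphocyte markers lay to the same side as that of the family. The 18 NK markers outside the family had a median of -0.49 and the 16 T cell markers -0.73, with 0 called in both lists. Ncr1, one of those NK markers, was at 0.28 ± 0.36 (edgeR adjusted p = 0.926), the opposite sign, and Cd3e at -0.97 ± 0.50 (adjusted p = 0.570). The adaptor and kinase genes through which these receptors signal (Tyrobp, Hcst, Syk and others) had a median of -0.28, with 0 of 12 called. Of 14 tested ligand genes, Clec2h was lower below median survival (-2.66 ± 0.65, edgeR adjusted p = 0.00955). Genes of other tissues also moved with the class, with 3 of 3 kidney, 3 of 5 intestine and 1 of 4 reproductive tract markers lower below median survival. The kidney markers summed to at most 7.94 CPM in mice below and 3759 CPM in mice above median survival. Their part in the Clec2h result was not tested, and the members' median was -0.44 without the 8 libraries.

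Strains differed in the family about as often as in other genes. In the 25 strains with 3 or more mice, 17 of 27 members tested differed by edgeR's quasi-likelihood test, whereas 69% of 20687 genes did. The lowest p belonged to Klra10, Klrb1b, Klrb1f, Klra17, Klrg1 and Klra2. Without the 5 libraries nearer to another strain, 20 members differed, the same 17 plus Klra7, Klrc3 and Klrg2, and 14518 of 20680 genes did. Limma-voom called 12 members and 10429 of the 20687 genes, against 14283 in edgeR. Without the 8 strains in which every mouse held the kidney transcript Umod, 12 of 25 members and 11607 of 20111 genes differed. Leaving out 1 mouse of each strain in turn gave 12 to 16 members and 11120 to 12608 genes. Cd3e differed between strains (edgeR adjusted p = 6.06e-09), and Ncr1 did not pass (adjusted p = 0.192).

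With Ncr1 and Cd3e as covariates, 12 of 27 members still differed between strains, against 56.9% of all genes. They were Klra10, Klrb1b, Klrg1, Klra2, Klra1, Klra7, Klrb1c, Klra8, Klra9, Klra6, Klra17 and Klri1. Of the 12 Klra genes tested 8 passed (66.7%), near the share of all genes. Klra10 had F = 9.18 (edgeR adjusted p = 6.53e-12) and Klrb1b F = 6.13 (edgeR adjusted p = 7.51e-09), which was F = 3.11 (adjusted p = 0.000411) without the 8 libraries rich in other tissues. Klrk1, Klrc1, Klrb1f, Klri2, Klra3, Klra4 and Klrb1 passed between strains without the covariates and did not pass with them. The change in each gene's strain differences between these fits was not tested. Klrd1 and Klrc2 passed in neither fit. Without the 5 libraries nearer to another strain 13 members passed, and 11922 of 20680 genes. Without the 5 mice that held over 15% of a member 10 members did, having lost Klrb1c and Klri1, and 11327 of 20487 genes. Klri1 and Klra17 lost their calls in 8 and 5 alternatives, among them, for both genes, each fit that left out 1 mouse of each strain. Klrb1c lost its call in 5 and Klra9 in 4. Limma-voom called 7, having lost Klra7, Klrb1b, Klrb1c, Klrg1 and Klri1. It called 6942 of all 20687 genes, against 11768 in edgeR. Without the 8 strains in which every mouse held the kidney transcript Umod, 9 of 25 members and 8172 of 20111 genes passed.

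Klra10, an inhibitory Ly49 receptor gene, had graded levels that differed widely between strains and, in some strains, between mice. Its CPM was 1.02, 1.40 and 2.31 in the 3 CC060 mice. It was 0.296, 0.517, 0.913 and 1.36 in the 4 Rogan mice. These were the only strains among the 25 with Klra10 detected in every mouse. VUX mice had 0.139, 0.433, 0.464 and 1.15 CPM. MEE mice had 0.0818, 0.352, 0.362 and 0.596 CPM. LOX mice had 0.0466 CPM at the lowest, 0.357 at the median and 5.89 at the highest. In 7 strains, VUX, MEE and LOX among them, some mice but not all were above the detection limit. In the other 16 strains, with 63 mice, no mouse was, although most of these strains held some counts. No count at all was found in 4 GIT, 4 CC040 and 3 CC021 mice, which allows up to 0.0253, 0.0375 and 0.0431 CPM over each strain. The 7 CC044 mice, with 335773442 counts in all, reached 0.137 CPM at the highest.

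Klra10 was also read in the 5 libraries nearer to another strain, each 1 tumour of a mouse. The library labelled Rogan-C3, nearest to CC046, had 0.0481 CPM, whereas that mouse with all its tumours had 0.517 CPM. The library labelled LOX-D1, nearest to LAT, had 0 CPM. The library labelled LAT-D3, nearest to LOX, had 0.352 CPM, whereas no LAT mouse with all its tumours exceeded 0.0782 CPM. The library labelled MEE-A3, nearest to CC044, had 0.0475 CPM, against 0.352 CPM for that mouse, and LAT-F5, nearest to CC059, had 0 CPM. Without these libraries Klra10 was again detected in every mouse of 2 strains, in some mice of 7 and in none of 16. The strain difference of Klra10 was of the same size without these libraries (F = 7.31, against F = 7.15 with them).

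**Figure D2:**
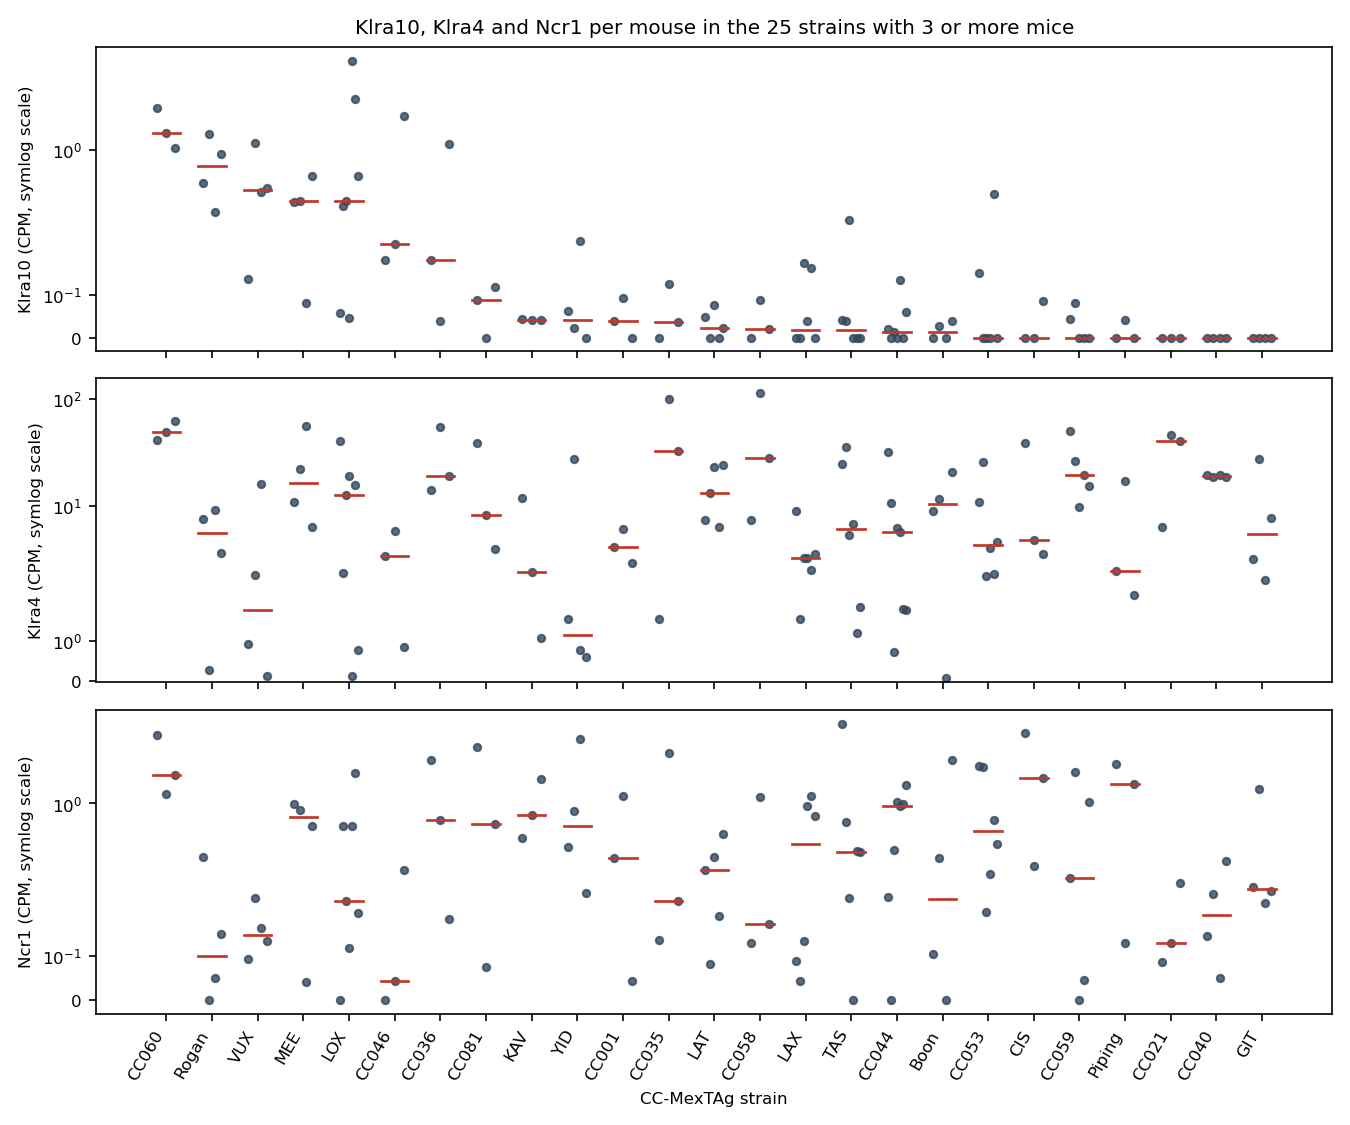
CPM per mouse (points) and strain medians (red lines) of Klra10, Klra4 and Ncr1 in the 25 strains with 3 or more mice, ordered by median Klra10, on axes that are linear near 0 and logarithmic above. Klra10 is at 0 in all GIT, CC040 and CC021 mice, while the order of Ncr1 and Klra4 is different.

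CC060 had the highest strain median for 14 of the 30 genes, 11 of them in the Klra group. How often CC060 ranks highest among all genes was not tested, so this tally has no background. The CC060 medians of Klra11-ps (0.08 CPM) and Klra14-ps (0.16 CPM) lay below the detection limit. Klra2 (21.6 CPM, against 21.3 in KAV) and Klra8 (0.668 CPM, against 0.657 in CC046) were nearly level with the next strain. Values of Klra8, Klra9 and Klra10 are uncertain between near-identical copies, so these genes are not separate observations. Klra7 (Ly49G, inhibitory) was at 2.44, 4.01 and 4.41 CPM in CC060 mice, and the next strain, MEE, had a median of 0.879 CPM. Klra1 (Ly49A, inhibitory) was at 1.12, 1.35 and 1.56 CPM in CC060 mice, against a MEE median of 0.378 CPM. Klra6 (Ly49F) was at 3.19, 3.56 and 7.79 CPM in CC060 mice, against a MEE median of 1.02 CPM. For Klra6 all 3 CC060 mice lay above every other mouse, the next being MEE-E2 at 2.88 CPM. For Klra7 and Klra1 the mouse MEE-E2, at 3.46 and 1.58 CPM, lay within or above the CC060 range, and so did YID-E1 for Klra7, at 2.64 CPM, LOX-A3 for Klra1, at 1.46 CPM, and GIT-H3, which had the most Klra1, at 1.77 CPM. Klra4 was at 41.1, 49.2 and 61.7 CPM in CC060 mice. CC021, the next strain, had 6.41, 40.1 and 46.01 CPM and overlapped with CC060. Ncr1, too, had its highest strain median in CC060, at 1.74 CPM (1.2 to 3.70). After the linear part of Ncr1 and Cd3e was taken out, CC060 mice still averaged 3.14 ± 0.47 log2 units (SD, n = 3) above the fit for Klra10, 2.63 ± 0.76 for Klra6, 2.19 ± 0.30 for Klra1 and 2.09 ± 0.26 for Klra7. Without the 5 libraries nearer to another strain no member changed its highest strain, and the MEE medians were 1.06 CPM for Klra7, 0.434 for Klra1 and 1.39 for Klra6. For the residual of Klrb1c the CC060 mean was -0.04 ± 0.75. CC060 mice were all above median survival.

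Other genes had other strains at their ends. Klrb1b was at 4.53, 6.74 and 7.78 CPM in CC036 mice and at 5.92, 6.21 and 10.6 CPM in CIS mice. It was at 0.258, 0.558 and 1.26 CPM in CC058 mice, below every mouse of both strains. Klra2 was at 1.01 to 1.66 CPM in the 4 CC040 mice, against 12.7 to 16.7 CPM in the 4 GIT mice, with no overlap. Klrb1f, an activating NKR-P1 receptor, had its highest strain median in CC044, at 3.45 CPM (0.0484 to 6.17), the strain with the highest Cd3e median, 73.5 CPM. Klra17 also had its highest strain median in CC044 (4.11 CPM, 0.194 to 19.5). Klra4 was nearly equal in the 4 CC040 mice, at 18.5, 18.5, 19.2 and 19.3 CPM. Klri2 had its highest strain median in Piping (2.07 CPM) and its lowest in CC046 (0.228 CPM). Klrb1a was highest by median in CC081 (1.23 CPM) and lowest in CC046 (0.0456 CPM), the strain that was lowest for Ncr1 as well (0.0438 CPM). Klrg2 had its highest strain median in that same strain, CC046, at 2.28 CPM, and its lowest in GIT, at 0.522 CPM. These strains were named after their values were seen. CC036, CC058, GIT, Piping and CC081 are among the 8 strains in which every mouse held Umod, and so is CC021, named above.

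**Figure D3:**
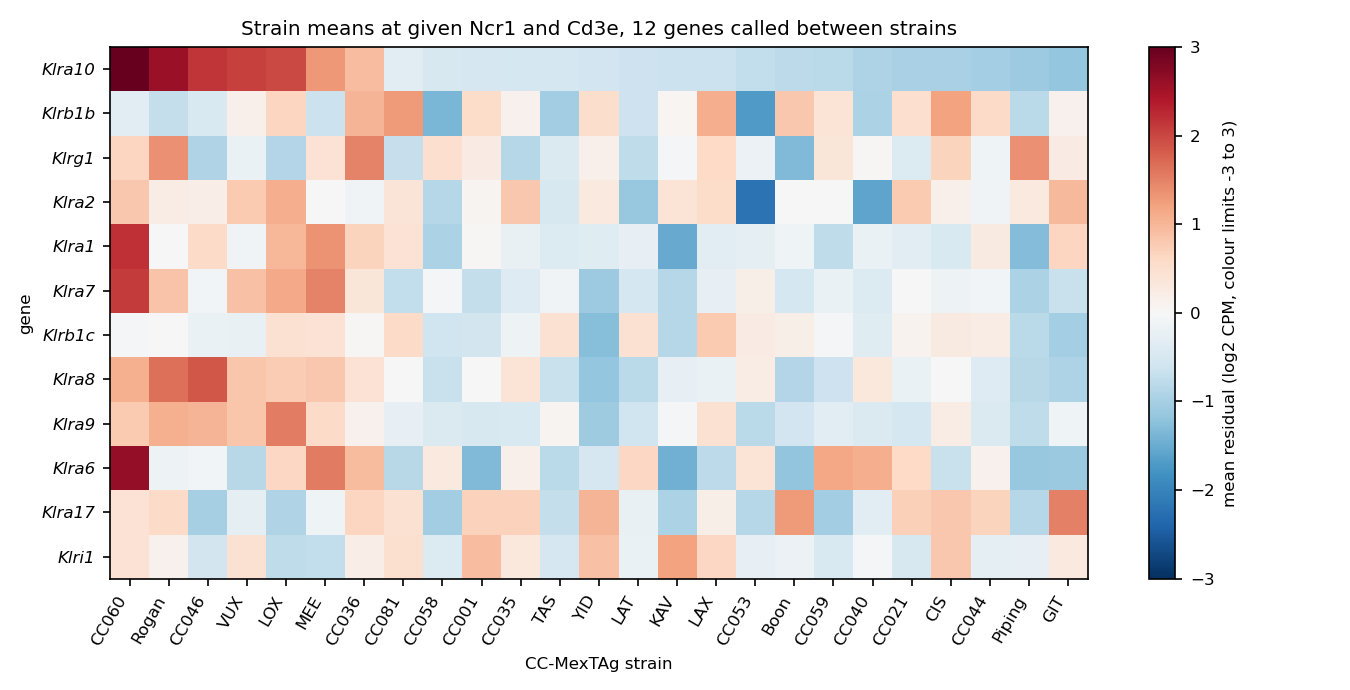
Mean residual (log2 CPM, colour) of the 12 genes that differed between strains at given Ncr1 and Cd3e, after a least-squares fit on both, by strain, with genes ordered by p and strains by Klra10. Klra10 runs to 3.14 in CC060 and to -1.15 in GIT, and Klra1, Klra7 and Klra6 are also highest in CC060.

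Levels of most members followed those of Ncr1. In 1 fit over 119 mice with the log2 CPM of Ncr1 and of Cd3e as predictors, 16 of 21 members rose with Ncr1 at given Cd3e and 0 fell, whereas 6.48% of all genes rose, 9.43% fell and 15.9% did either (edgeR, adjusted p under 0.05). The median slope of the members was 0.40 log2 units per log2 unit of Ncr1, against -0.01 over all genes tested. Klri2 had a slope of 0.58 ± 0.05 (SE, adjusted p = 2.52e-17), Klrc1 0.54 ± 0.06 (adjusted p = 1.59e-10), Klrd1 0.46 ± 0.05 (adjusted p = 9.45e-13) and Klrk1 0.41 ± 0.06 (adjusted p = 5.22e-08). Klrc2, Klre1, Klrb1f, Klri1, Klra7, Klrb1c, Klra13-ps, Klra4, Klrb1a, Klra8, Klra6 and Klra17 also passed, with slopes of 0.28 to 0.49. Strain was added to the fit in the strains with 3 or more mice only, so this fit had fewer mice. There 11 members still rose, whereas 0.268% of 17192 genes differed. Klra17, Klra4, Klra6, Klrb1a and Klri1 did not pass there, although their slopes remained positive. The part of the smaller set of mice in these lost calls was not tested. The NK markers outside the family gave 11 higher and 1 lower of 17, the T cell markers 1 higher of 15, and the effector genes of killing, some of which are also NK markers, 6 higher of 7. Xcl1, an NK chemokine, had a slope of 0.74 ± 0.07 and Gzmc, a granzyme, 0.84 ± 0.09. Kidney markers (2 of 3) and intestine markers (3 of 5) rose with Ncr1 too, and 4 of 7 mesothelial markers fell, among them Wt1 (-0.75 ± 0.18). Their part in the slopes was not tested, and 17 members rose without the 8 libraries rich in other tissues.

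With Cd3e at given Ncr1, 15 of 21 members rose and 2 fell, whereas 22.3% of all genes rose, 24.9% fell and 47.2% did either. The median slope was 0.25, against -0.01 over all genes tested. Klrg1 had a slope of 0.62 ± 0.09 (edgeR adjusted p = 1.61e-09), Klrb1f 0.59 ± 0.04 (adjusted p = 2.88e-26), Klra17 0.54 ± 0.07 (adjusted p = 8.57e-12) and Klrk1 0.38 ± 0.04 (adjusted p = 4.83e-14). Klra4 fell, with a slope of -0.49 ± 0.10 (edgeR adjusted p = 8.03e-06), and so did Klra6, at -0.26 ± 0.09 (adjusted p = 0.00973). With strain added, again in the strains with 3 or more mice only, 12 rose and Klra4 alone fell. Its slope was -0.53 ± 0.12 (edgeR adjusted p = 2.39e-04), and 31.6% of 17192 genes differed. Of the other lists, 15 of 15 T cell markers rose with Cd3e. Of 17 NK markers 14 rose, and Cma1 (-0.34 ± 0.13), Itga2 (-0.19 ± 0.07) and Styk1 (-0.29 ± 0.07) fell. Of 7 effector genes 6 rose and Gzmc fell (-0.47 ± 0.09). Of 12 signalling partners 10 rose, led by Zap70 (0.87 ± 0.04) and Ptpn6 (0.49 ± 0.04). Markers of B cells (8 of 8) and of plasmacytoid dendritic cells (5 of 6, with Tcf4 lower) rose with Cd3e as well, macrophage markers gave 2 higher and 1 lower of 10, and 2 of 7 mesothelial markers fell. Their part in the slopes of Klra17 and Klra2 was not tested.

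The members fell into several kinds. Both slopes were positive and passed for 11, namely Klrk1, Klrd1, Klrc1, Klrc2, Klre1, Klri1, Klri2, Klrb1c, Klrb1f, Klra17 and Klra13-ps. Klra7, Klra8 and Klrb1a passed with Ncr1 and not with Cd3e. Klra2, Klra3, Klrb1b and Klrg1 passed with Cd3e and not with Ncr1. Klra4 and Klra6 rose with Ncr1 and fell with Cd3e. These kinds hold for the fit with both markers. With Ncr1 alone in the fit, Klra4 (0.22 ± 0.10, edgeR adjusted p = 0.0744) and Klra6 (0.21 ± 0.09, adjusted p = 0.0631) did not pass, and with Cd3e alone Klra6 (-0.14 ± 0.08, adjusted p = 0.164) did not. Klra2 passed with Ncr1 in 5 alternatives (slopes of 0.21 to 0.44) and Klra3 in 3 (0.23 to 0.48). Klrg2, a family member of little known function, passed with neither (slopes 0.03 ± 0.07 and -0.05 ± 0.06). The remaining 9 members were too low to be tested. Ncr1 itself is low, with 2906 counts over all mice and 0 counts in 9, which limits the precision of slopes on it. For Klrb1b the slope on Ncr1 was -0.18 ± 0.12, and it was 0.27 ± 0.07 (edgeR adjusted p = 0.00482) without the 8 libraries rich in other tissues, LAX-E2 among them. Klrg1 had a slope on Ncr1 of 0.26 ± 0.09 (edgeR adjusted p = 0.0412) without the 5 mice that held over 15% of a member.

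**Figure D4:**
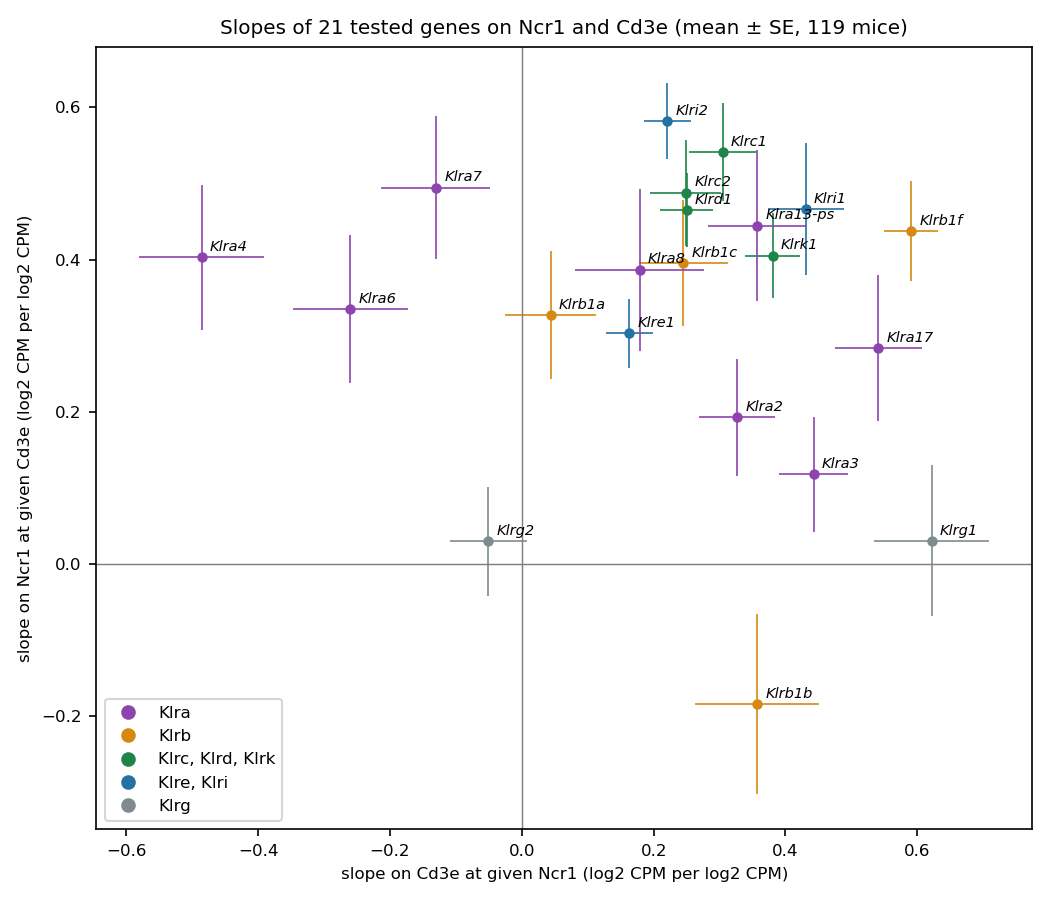
Slope of each of the 21 tested genes on Cd3e at given Ncr1 (x axis) and on Ncr1 at given Cd3e (y axis), in log2 units per log2 unit, with SE bars over 119 mice and colours by gene group. Klra4 (-0.49 and 0.40) and Klra6 (-0.26 and 0.34) lie left of 0, Klrg2 lies near the origin, and Klrb1b is the lowest point.

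Klra4 was only weakly related to Ncr1 over mice when Cd3e was not taken into account. Its slopes on Ncr1 and Cd3e had the same signs as those of Gzmc (0.84 and -0.47). Gzmc was the exception in its list, as 6 of 7 effector genes rose with Cd3e, and so did 14 of 17 NK markers. The CPM of Klra4 ranged over 0.123, 7.09 and 70.4 (lowest, median, highest) in mice below and 0.0707, 9.23 and 113.8 in mice above median survival. The highest value was in CC058-H4, with Ncr1 at 1.13 CPM and Cd3e at 1.08 CPM, whereas LOX-E4 had 0.131 CPM of Klra4 with Cd3e at 119 CPM. Of 4 relations computed over 119 mice on log2 CPM, Klra4 with Klra6 had Pearson's r = 0.776 and Spearman's rho = 0.808, each with permutation p = 1e-05, the smallest that 100000 permutations can give (adjusted over the 4 relations, 2e-05). This pair was chosen after its values were seen. Without the 2 mice farthest from the median of Klra6, r was 0.771, and within strains it was 0.712. Klra4 and Klra6 have no 31-base run in common in the reference transcripts. Klra genes of these strains that differ from the reference could not be examined. A part of shared reads in the relation of Klra4 and Klra6 was not tested. Klra4 with Ncr1 had r = 0.233 (permutation p = 0.0108, adjusted 0.0108) and rho = 0.178 (permutation p = 0.0537, adjusted 0.0537), with r = 0.208 without the 2 farthest mice. Klra4 with Cd3e had r = -0.231 (permutation p = 0.0107, adjusted 0.0108) and rho = -0.207 (permutation p = 0.0243, adjusted 0.0324), with r = -0.200 without the 2 farthest mice. Ncr1 with Cd3e had r = 0.459 and rho = 0.544 (permutation p = 1e-05 each, adjusted 2e-05), and r = 0.478 without the 2 farthest mice. In the 28 mice of the 8 strains in which every mouse held the kidney transcript Umod, the r values were 0.863, 0.0977, -0.435 and 0.374 in the same order, and in the other 91 mice 0.792, 0.259, -0.188 and 0.482.

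Among 14776 genes with a mean of at least 1 CPM, those most like Klra4 by Spearman's rho over 119 mice were Hmga2 (0.753), a chromatin protein of embryonic and tumour cells, Ccnd1 (0.732), which encodes cyclin D1, and Mapk6 (0.714). Those most like Klra2 were Sirpb1a (0.788), Fpr2 (0.773) and Lair1 (0.748), genes known from myeloid cells. Those most like Klrk1 were Klrd1 (0.863), Ctsw (0.834) and Cd96 (0.825), known from killer lymphocytes. Klrb1b was most like Gpr141b (0.668) and Gpr171 (0.658), and no gene exceeded 0.482, the value of Tesk1, for Klrg2. These values are descriptions, and the 119 mice share strain, depth and cell makeup.

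**Figure D5:**
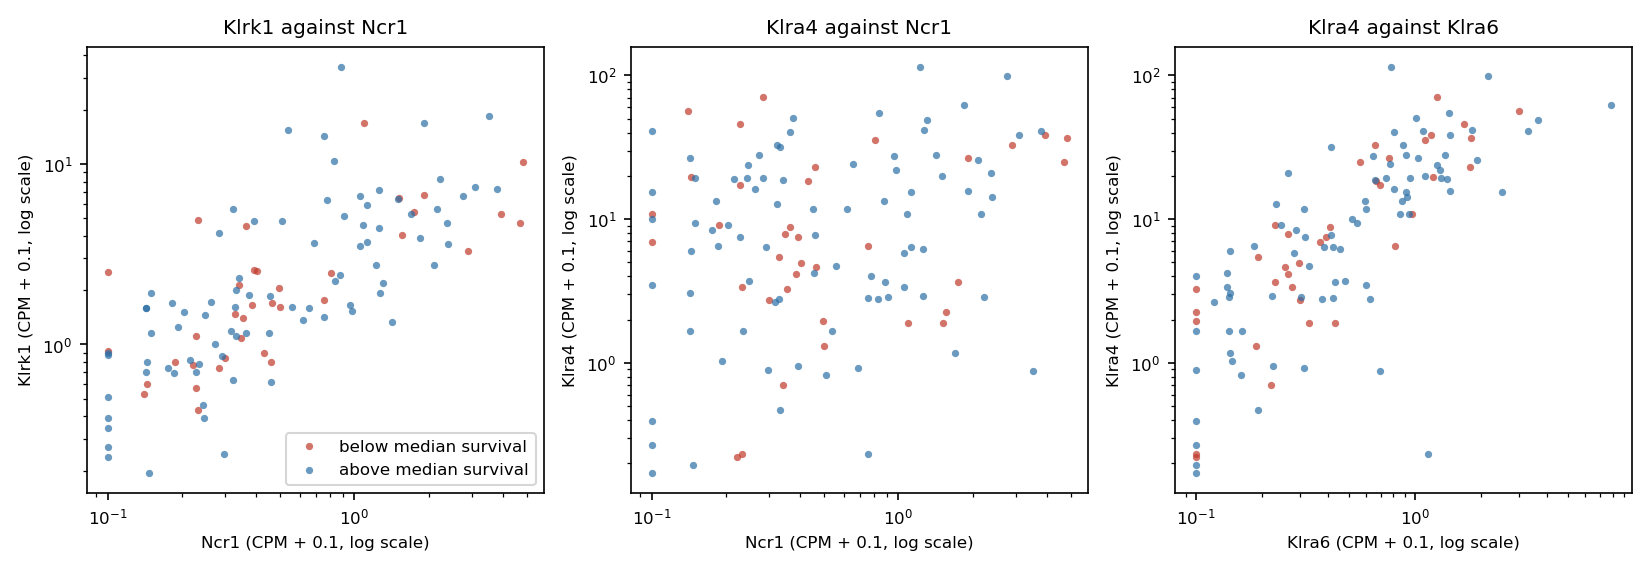
CPM plus 0.1 per mouse on log axes for Klrk1 against Ncr1, Klra4 against Ncr1 and Klra4 against Klra6, with mice below (red) and above (blue) median survival. Klrk1 follows Ncr1, Klra4 is only weakly related to Ncr1 (r = 0.233), and Klra4 follows Klra6 (r = 0.776).

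Tumours of 1 mouse could differ as much as mice did. Over the 35 mice with several tumours (83 tumours), the SD of log2(CPM + 0.1) between tumours of a mouse was 1.08 for Klra4 and 0.992 for Klrk1. All 5 libraries nearer to another strain are among these tumours, and their part in the SD was not tested. The SD between the means of those mice was 1.89 for Klra4 and 1.29 for Klrk1. For Klrd1 the SD was 1.06 between tumours of a mouse and 0.994 between mice. The 6 tumours of CC074-B3 had 58.3, 62.4, 23.7, 25.7, 40.4 and 40.7 CPM of Klra4. In the same order they had 1.89, 0.397, 1.78, 0.246, 2.33 and 4.08 CPM of Klrk1. Their Ncr1 was 0.359, 0.0441, 1.39, 0.246, 1.10 and 3.59 CPM. Klra4 was high in all 6, whereas the tumour with the most Ncr1 also had the most Klrk1 and the tumour with the least Ncr1 had the second least Klrk1.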

How the data were processed

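Whole tumours were profiled by strand-specific RNA-seq, per the labels' protocols. Kallisto 0.46.1, DESeq2 and the build GRCm38 are named in the submitters' processing notes, whereas the annotation release is not stated there. Values were deposited as estimated counts per gene, in whole numbers and not normalized. Symbols were found for 35825 of 36118 Ensembl IDs. Counts were added per mouse. The 2 columns of mouse GIT-K1 are known by mouse and class only. Levels are CPM of all gene counts.

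Tests used edgeR 4.0.16 (quasi-likelihood, TMM, filterByExpr, R 4.3.3), with Benjamini-Hochberg adjustment over all genes tested at 0.05. Predictors and correlations used log2 CPM with TMM and a prior count of 2. Limma 3.58.1 (voom), DESeq2 1.42.0, other scalings, filters, libraries, strains and covariates were alternatives. The fits were tested on simulated data. The 20 closest pairs of libraries differed beyond sampling noise (lowest chi-square 2.98 per gene). Positions and transcripts came from GENCODE vM21, promoters from RefSeq.

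The text names Klrb1c, Klrk1, Klrd1, Klrc1, Klrg1, Klre1, Klra8, Klra2 and Klra17 whatever their values, members that passed, the 6 of lowest p between strains, and leading genes of lists. The members and lists were chosen with earlier results of these data known.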

Additional observations from a re-analysis of the deposited data

Results flagged for a closer look

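Of 28 sets of strain values printed or examined here, 6 held a mouse far from the others of its strain. Each set had 4 to 7 mice. For normally distributed values about 1 in 20 sets would be flagged. CPM are skewed toward high values, so how many sets chance would flag here is not known. Klrb1b in LAX was at 111.8 CPM in LAX-E2, against 20.4 CPM in the next mouse. Klra17 in YID was at 53.1 CPM in YID-E1, against 1.03 CPM in the next mouse. Klrb1f in CC053 was at 19.6 CPM in CC053-G3, against 2.47 CPM in the next mouse, and the same mouse had the highest Klra2 of its strain, at 10.2 CPM, against 4.34 CPM. CC053-G3 and YID-E1 also had much Cd3e, at 206 and 181 CPM. Klrg1 in Rogan was at 3.18 CPM in Rogan-J2, against 0.543 CPM in the next mouse. Klra4 in YID was at 27.3 CPM in YID-D1, against 1.57 CPM in the next mouse.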

How the results depend on the processing

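Of the counts of members called, all stayed within 1.5 times of the value given, except 3. Between survival classes, 1 member was called in place of 0 without the filter on low counts (Klra10) and without strain CC044 (Klrb1b). Between strains given Ncr1 and Cd3e, limma-voom called 7 members in place of 12, and 6942 of 20687 genes in place of 11768. Members detected in 50% of the mice or more numbered 5 at a limit of 1 CPM, in place of 14. Leaving out each of 3 mice per strain in turn gave 12 to 16 members between strains and 8 to 11 given Ncr1 and Cd3e. Of all genes, these fits called 11120 to 12608 and 8375 to 9605. The cause was not tested. The slope of Klrb1b on Ncr1 at given Cd3e turned from -0.18 to 0.31 in limma-voom, 0.273 without libraries rich in other tissue, 0.214 without strains in which every mouse holds Umod and 0.301 without the 5 mice that hold over 15% of a member. Klra4's negative slope on Cd3e kept its call in all 11 alternatives.

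Leaving out libraries nearer to another strain and the 5 mice was chosen after seeing the data. No paired analysis was possible because the replicate numbers follow accession order and pair no mice. Counts of a few per mouse limit Ncr1, Klra10 and the pseudogenes.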

Other observations

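Genes of the ligands that these receptors are known to bind were tested beside them, 14 of 19 passing the filter on low counts. With Ncr1 at given Cd3e, 2 rose and 1 fell (edgeR, adjusted p under 0.05 over all genes). Clec2h, a Clec2 gene known from the intestine, had a slope of 1.07 ± 0.30 and Clec2g -0.68 ± 0.19 (SE, 119 mice). With Cd3e at given Ncr1, 5 rose and 4 fell. Clec2i, the ligand of the Klrb1f product, had a slope of 0.61 ± 0.06, and H2-K1, a class I gene, 0.37 ± 0.04. Intestine markers also rose with Ncr1, among them Sis (1.84 ± 0.47) and Defa24 (1.70 ± 0.53), and their part in the slope of Clec2h was not tested.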
